A study of Homo sapiens with 2 samples.

Results

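The genes described here are 37 human genes that act when a cell enters S phase and copies its DNA, from the E2F transcription factors to the replicative helicase, the polymerases and the enzymes that make deoxynucleotides. They were chosen by name, and all 71 probe sets that the array annotation gives to exactly 1 of them were taken, out of 54675 probe sets on the array. A probe set is the group of short array probes that together report 1 transcript. The RNA came from C4-2, an androgen receptor-positive prostate cancer line of the LNCaP lineage. The cells were grown in medium with serum, transfected with RNAiMax, and harvested after 48 h. One group received miR-99a and the other si-GL2, the small interfering RNA that served as control, and each group was measured on 1 Affymetrix array. With 1 array per group no replicate error, standard deviation or p-value exists for any value below, and every difference is between 2 cultures, both of which carried a transfected small RNA.

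The labels name the transfected microRNA only as miR-99a. The main strand of that name in RefSeq, hsa-miR-99a-5p, is encoded at chr21:16539101-16539122 on the plus strand of GRCh38.p14, and is shown because it names the treated group. Capitals mark its seed, bases 2 to 8, the part through which a microRNA pairs with its targets.
hsa-miR-99a-5p: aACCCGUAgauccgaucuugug

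Before S phase, the origin recognition complex with CDC6 and CDT1 loads rings of MCM2 to MCM7 onto DNA, a step called licensing. Kinases then let CDC45 and the GINS proteins join the ring, which makes it an active helicase, and polymerases follow. Many of these genes are transcribed by E2F factors late in G1, so as a group they are commonly read as a sign of how many cells of a culture are cycling. Bulk RNA cannot tell fewer cells in S phase from less of each RNA per cell.

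Values are signal intensities on the linear scale the authors deposited, and a difference is log2(signal + 16), miR-99a minus si-GL2. Signals of different probe sets depend on their probes, so levels are compared between the arrays and not between genes. A probe set was taken as expressed when its level was at or above the array-wide median, a signal of 47.2. Of the 71 probe sets 60 did, and each of the 37 genes had at least 1. The differences of all expressed single-gene probe sets, 22401 in number, had a median of -0.02 and an SD of 0.27. As a check of the label, all 7 prostate luminal markers measured were expressed, and their signals summed to 28266 on the miR-99a array and to 28250 on the control array. Of markers of other cells, 0 of 3 basal, 4 of 6 fibroblast, 2 of 4 leukocyte and 2 of 4 endothelial genes were above the limit, which is relative and not a detection call. Their sums were 40.4, 525, 177 and 295 with miR-99a, and 47.7, 452, 151 and 260 with si-GL2. Sums over different probes are compared only between the arrays, and the part of other cells in the results was not tested.

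The S phase genes were close to level between the arrays. Of the 60 expressed probe sets, 0 were higher by 1.5-fold or more in the miR-99a culture, beside 1.53% of all expressed probe sets, and 1 was lower by as much, beside 2.76%. At a smaller size, a log2 difference of 0.32, 5 were higher (7.83% of all expressed probe sets were) and 6 were lower (12.2%), which left 49 in between. These shares, 8.33% and 10.0% of the 60, lie near those of the whole array. Their median was 0.03 and their SD 0.24. With each gene represented by its brightest probe set, 21 of 37 lay above 0, the median was 0.02 and the range ran from -0.60 for CDC25A to 0.48 for MCM3. Over all 12218 expressed genes 43.7% lay above 0 and the median was -0.03.

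**Figure D1:**
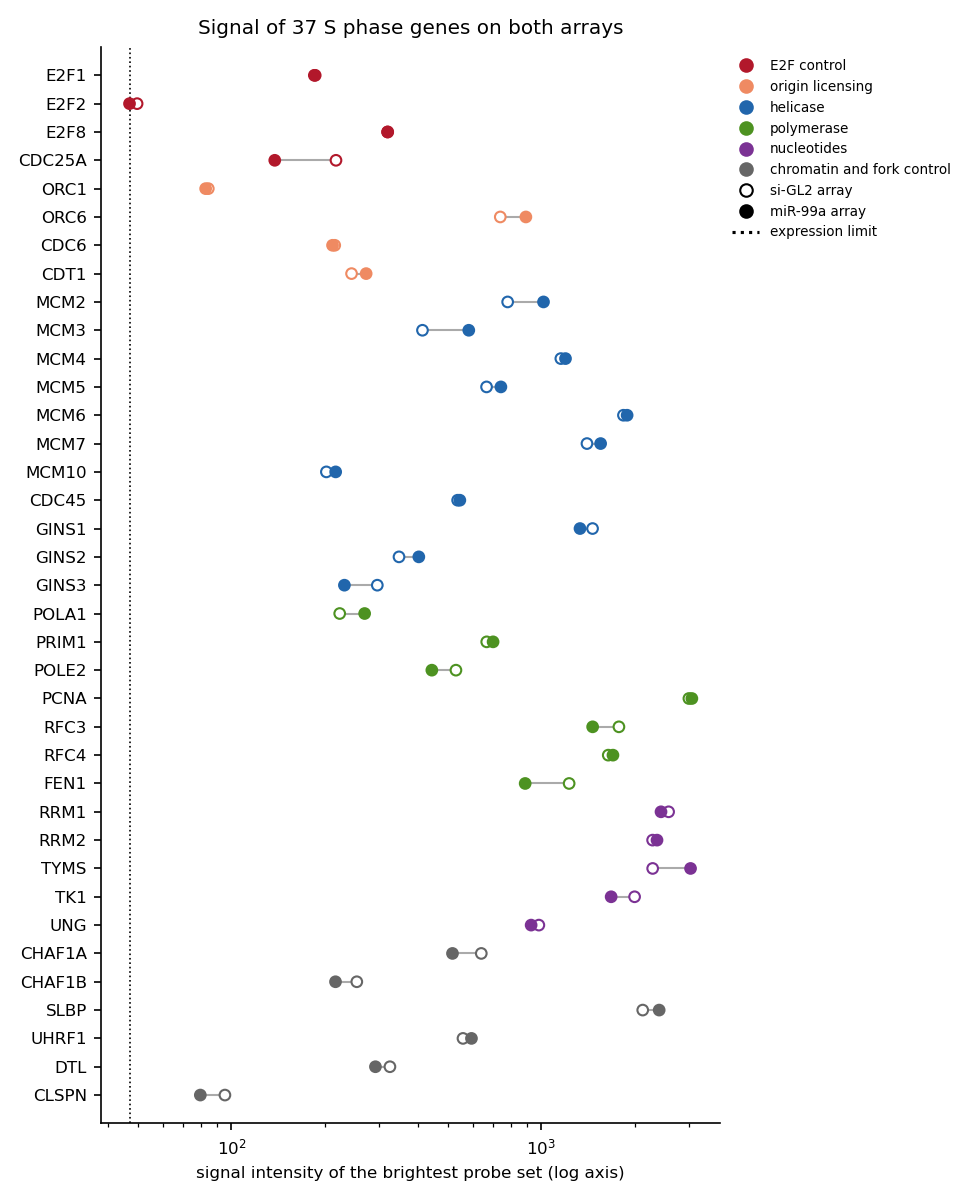
Signal intensity (log axis) of the brightest probe set of each of the 37 genes on the si-GL2 array (open circles) and the miR-99a array (filled circles), coloured by step; a grey line joins the 2 arrays and the dotted line is the expression limit at 47.2. Many pairs of circles overlap or touch, and the longest lines belong to CDC25A, MCM3, FEN1, TYMS and MCM2.

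A gene's probe sets are separate readings of it on the same 2 arrays, and they give the only check on a single value here. Among the 18 members with at least 2 expressed probe sets, the brightest and the next differed by a median of 0.12 on the log2 difference scale, and by up to 0.54. Over the 5842 genes of the array with such a pair the median gap was 0.14. In 7 of the 18 all expressed probe sets lay above 0, in 5 all lay below 0, and in 6 they were opposed. The 12 with 1 direction are 66.7% of the 18, beside 56.2% of all 5842 genes. The other 19 members had 1 expressed probe set and no such check.

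**Figure D2:**
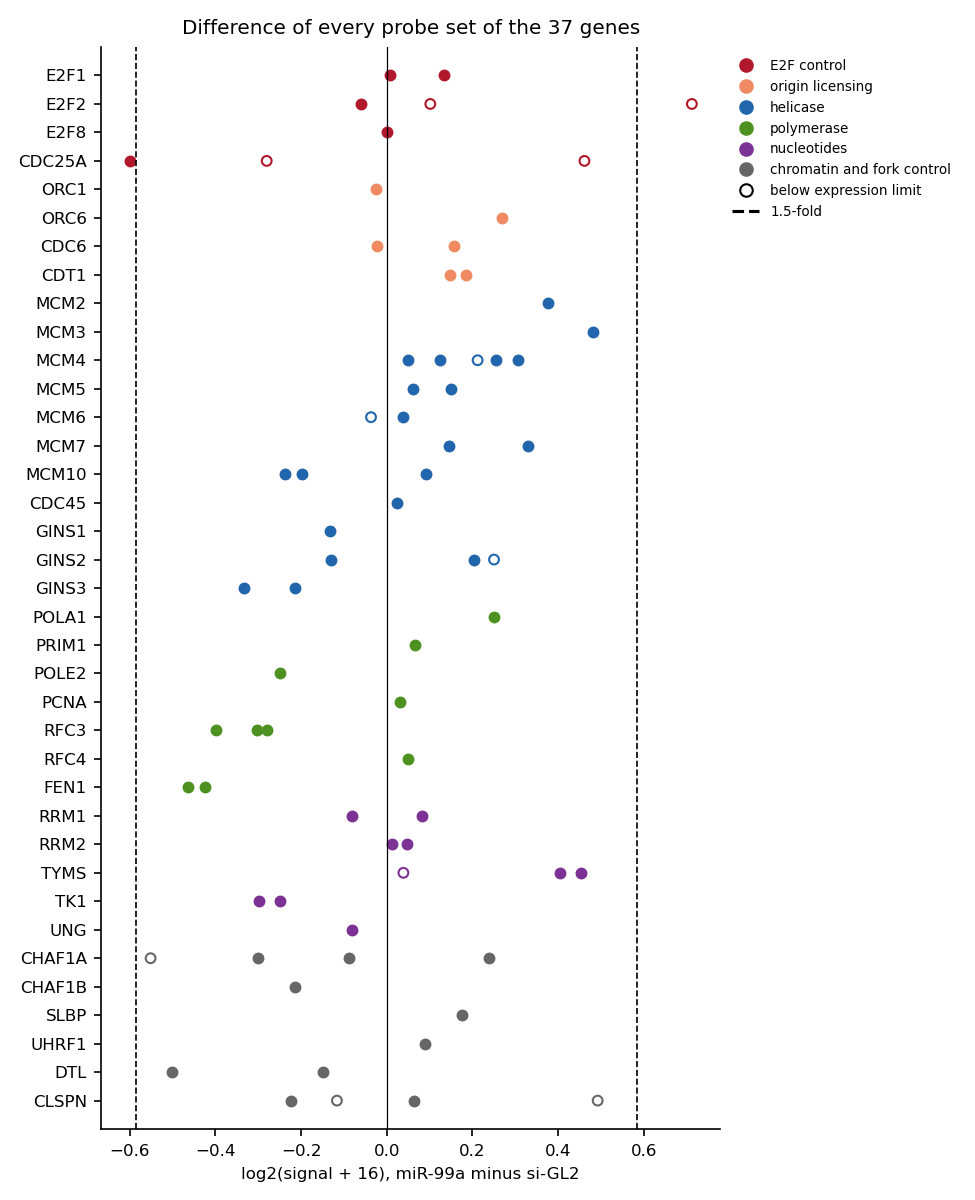
Difference between the arrays, log2(signal + 16), miR-99a minus si-GL2, for each of the 71 probe sets, 1 row per gene; filled points are expressed, open points are below the limit, and dashed lines mark 1.5-fold. The only filled point past a dashed line is the CDC25A probe set at -0.60, and all filled points of MCM2 to MCM7 lie right of 0.

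The 3 E2F factors among the 37 genes were level by their brightest probe sets. E2F1, an activator of S phase transcription, read 186 after miR-99a and 185 after si-GL2 by its brighter probe set (0.01), and 164 and 148 by the other (0.13). E2F8, a repressor that acts later in S phase, read 319 on both arrays (0.00). E2F2, a second activator, stood at the limit with 46.9 and 49.6 (-0.06). Its 2 dimmer probe sets read 31.9 against 28.7 and 37.3 against 16.6, the latter a difference of 0.71 below the expression limit.

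CDC25A, the phosphatase that removes inhibitory phosphates from CDK2 and is itself an E2F target, was the member furthest below the control. Its 1 expressed probe set read 138 with miR-99a and 218 with si-GL2, which is -0.60 on the log2 difference scale and a ratio of 1.58 between the signals. This is the 1 member past 1.5-fold, and narrowly: it was at -0.56 after quantile normalization and at -0.48 with a pseudocount of 64. Its dimmer probe sets, both below the limit, read 36.7 against 48.0 (-0.28) and 33.0 against 19.6 (0.46), so the mean over all 3 was -0.14.

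Of the genes of origin licensing other than the MCM ring, 2 lay close to the control and 2 above it. ORC1, the largest subunit of the origin recognition complex, read 82.6 after miR-99a and 84.3 after si-GL2 (-0.02). ORC6, a further subunit, read 892 against 737 (0.27), by a single probe set of a kind, marked _x_, that can cross-hybridise. CDC6, the loading ATPase, was at -0.02 by 1 probe set (212 against 216) and at 0.16 by the other (218 against 194). CDT1, which brings the MCM ring to origins, was higher by both its probe sets, at 272 against 244 (0.15) and 128 against 111 (0.18). The 4 genes had a median of 0.06 and none reached 0.32 in either direction. The median was -0.02 over ORC1 and CDC6 alone, the 2 left without marked probe sets, and 0.15 over the 3 above the 75th percentile of level.

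The 6 subunits of the MCM ring stood together on the side of miR-99a. All 11 of their expressed probe sets lay above 0, beside 46.0% of all expressed probe sets, with a median of 0.15 and a range from 0.04 to 0.48. MCM3 read 583 after miR-99a against 414 after si-GL2 (0.48), and MCM2 read 1016 against 779 (0.38), each by 1 probe set. MCM7 was at 1553 against 1404 (0.14) and, by its other probe set, 971 against 769 (0.33). These are the 3 of 11 probe sets above 0.32.

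The other ring subunits were nearer the control. The 4 expressed probe sets of MCM4 were at 0.05, 0.12, 0.25 and 0.31, the brightest reading 1197 against 1156 and the dimmest of them 186 against 148. MCM5 read 741 against 666 (0.15) and 197 against 188 (0.06), and MCM6 read 1891 against 1840 (0.04). A dim MCM6 probe set below the limit, at 22.4 against 23.4, was the 1 of the ring's 13 probe sets below 0. The ring is a complex known from textbooks, but it was set apart from the helicase step outside the planned comparisons. Members and lists were also chosen with earlier results of these data known. Its shared direction is therefore a description and not support for a change of the ring. The ring's probe sets are not independent replicates, and none of its members reached 1.5-fold.

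The factors that turn the ring into a running helicase lay on both sides of the control. CDC45 read 546 after miR-99a and 537 after si-GL2 (0.02). Of the GINS subunits, GINS3 was lower by both probe sets, at 232 against 296 (-0.33) and 230 against 269 (-0.21), and GINS1 read 1333 against 1463 (-0.13). GINS2 was opposed, at 402 against 347 (0.20) and 243 against 267 (-0.13), and a probe set below the limit read 49.7 against 39.3 (0.25). MCM10, which helps to activate the helicase and is not part of the ring, was opposed as well: its brightest probe set read 217 against 203 (0.09) and the next read 114 against 138 (-0.24) and 81.8 against 96.2 (-0.20). Over all 11 helicase genes the median was 0.09, with 9 above 0. It turned to -0.05 over the 8 genes left without probe sets marked _x_, _s_ or _a_. There MCM2, MCM7 and CDC45 drop out. MCM10 and GINS2 also move from above 0 to below 0 there, as other probe sets represent them, at -0.24 and -0.13.

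Among the polymerase and fork enzymes FEN1 and RFC3 were furthest below the control. FEN1, the flap nuclease that trims Okazaki fragments, read 887 after miR-99a against 1229 after si-GL2 (-0.46) and 386 against 523 (-0.42) by its 2 probe sets, which were 0.04 apart. RFC3, a subunit of the complex that loads the PCNA clamp, was lower by all 3, at 1464 against 1780 (-0.28), 691 against 915 (-0.40) and 41.5 against 54.9 (-0.30). RFC4, another subunit of the same loader, was not lower: it read 1702 against 1644 (0.05).

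PCNA, the sliding clamp, read 3059 after miR-99a and 2993 after si-GL2 (0.03). POLA1, the catalytic subunit of the polymerase that primes synthesis, was at 269 against 224 (0.25), and its primase partner PRIM1 at 699 against 666 (0.07). POLE2, a subunit of the leading-strand polymerase, was at 443 against 530 (-0.25). The 7 genes thus spread to both sides, with a median of 0.03 and a range from -0.46 to 0.25.

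Of the nucleotide genes, TYMS and TK1, which serve 2 routes to thymidylate, lay on opposite sides of the control, neither past 1.5-fold. TYMS, thymidylate synthase, which makes dTMP from dUMP, read 3030 after miR-99a against 2287 after si-GL2 (0.40), and its second probe set 1323 against 962 (0.45). TK1, the kinase that salvages thymidine, read 1680 against 1999 (-0.25) and 1464 against 1804 (-0.30). For each gene both expressed probe sets lay on 1 side and about 0.05 apart, and a dim TYMS probe set below the limit read 38.2 against 36.7.

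The subunits of ribonucleotide reductase, which makes deoxynucleotides, were level. RRM1, the large subunit, was at -0.08 (2433 against 2574) and 0.08 (1950 against 1841), and RRM2, the small subunit that is made in S phase, was at 0.05 (2362 against 2285) and 0.01 (1752 against 1737). UNG, which removes uracil from DNA, read 927 against 982 (-0.08).

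Genes that rebuild chromatin behind the fork or watch over it had the lowest median of the 6 steps by their brightest probe sets, -0.18, with 4 of 6 below 0 and none past 0.32. With all of each gene's probe sets averaged, also those below the limit, the median was -0.06. CHAF1B, a subunit of the histone chaperone CAF-1, read 217 after miR-99a against 254 after si-GL2 (-0.21). Its partner CHAF1A was opposed, at 517 against 640 by an _x_ probe set (-0.30), 118 against 97.9 (0.24) and 86.0 against 92.4 (-0.09). A further CHAF1A probe set below the limit read 18.8 against 34.9 (-0.55). DTL, the receptor of the ubiquitin ligase that destroys CDT1 during S phase, was lower by both probe sets, which were 0.35 apart: 292 against 325 (-0.15) and 197 against 285 (-0.50).

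CLSPN, the claspin adaptor for checkpoint kinase CHK1, was dim and opposed, at 79.4 against 95.3 (-0.22) and 49.6 against 46.8 (0.06). Its probe sets below the limit were opposed too, at 25.3 against 13.4 (0.49) and 20 against 23.0 (-0.12). UHRF1, which guides maintenance DNA methylation, read 595 against 559 (0.09). SLBP, the protein that binds the stem-loop of replication-dependent histone mRNAs, read 2400 against 2124 (0.17).

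Since E2F is the factor these genes are known for sharing, their promoters were searched for its site. The letters searched were TTTCCCGC, TTTGGCGC and TTTCGCGC, on both strands, in windows from 250 bases before to 50 bases after each annotated start, from RefSeq on GRCh38.p14. TTTGGCGC and TTTCGCGC on opposite strands overlap in the palindrome-like run seen in MCM6. Windows were found for 34 of the 37 members; E2F8, MCM4 and MCM5 had none in the table. At least 1 match lay in a window of 20 of the 34 genes (58.8%), beside 3.30% of 27305 genes with a window. By window it was 21 of their 44 (47.7%), beside 2.74% of 35116 windows. Of the further replication genes described below 19 of 61 (31.1%) held a match, and of the G2/M genes 3 of 36 (8.33%). By step, matches were in 3 of 3 E2F control genes, 2 of 4 licensing genes, 7 of 9 helicase genes, 4 of 7 polymerase genes, 1 of 5 nucleotide genes and 3 of 6 chromatin and fork genes.

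Stretches of 60 bases, all before the start, are shown for members with a match, picked by hand from both sides of the control. The windows of MCM3 and MCM6 hold further matches outside the stretches shown. Each is written 5′ to 3′ on the gene's strand, with the match in capitals. CDC25A is from chr3:48188438-48188497 (minus strand), RFC3 from chr13:33818069-33818128 (plus), PCNA from chr20:5126653-5126712 (minus), TYMS from chr18:657583-657642 (plus), MCM3 from chr6:52284873-52284932 (minus) and MCM6 from chr2:135876494-135876553 (minus).
CDC25A: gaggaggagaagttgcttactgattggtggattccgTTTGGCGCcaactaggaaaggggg
RFC3: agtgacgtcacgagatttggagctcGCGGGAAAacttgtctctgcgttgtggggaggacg
PCNA: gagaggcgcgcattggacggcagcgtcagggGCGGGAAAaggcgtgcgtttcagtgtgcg
TYMS: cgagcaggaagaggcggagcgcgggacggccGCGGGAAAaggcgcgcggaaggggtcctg
MCM3: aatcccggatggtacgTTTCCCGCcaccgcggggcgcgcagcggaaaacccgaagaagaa
MCM6: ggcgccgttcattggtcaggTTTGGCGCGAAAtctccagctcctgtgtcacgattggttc

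RFC3, PCNA and TYMS carry the same 8 letters, GCGGGAAA, and differed by -0.28, 0.03 and 0.40. The 20 genes with a match had a median difference of 0.02, from -0.60 to 0.48, with 11 above 0. The 14 without had a median of -0.00, from -0.46 to 0.27, with 7 above 0. A match describes the letters and not a bound site, and its part in the differences was not tested.

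**Figure D3:**
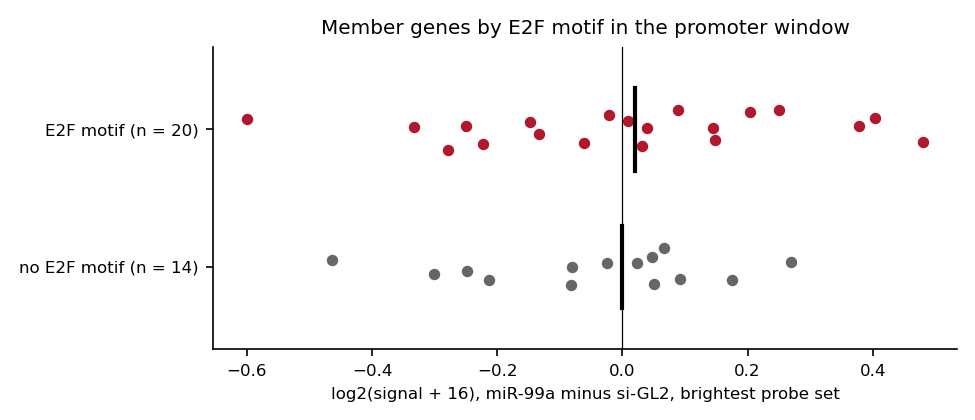
Difference between the arrays, log2(signal + 16), miR-99a minus si-GL2, of the brightest probe set of 34 member genes, split by whether a promoter window holds 1 of the 3 E2F motifs; points are genes, spread vertically at random, and black bars are medians. Both rows centre near 0, at 0.02 and -0.00, and the 20 genes with a motif reach further to both sides.

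The rest of the replication machinery, from a list of 76 further genes, also centred on 0. Of these 73 were expressed, with a median of 0.01 and 38 above 0. By brightest probe set, at least 1.5-fold higher were 3 (4.11%, beside 1.21% of all expressed genes), and at least 1.5-fold lower were 0 (beside 2.9%). Dimmer expressed probe sets of HELLS and ASF1A passed the rule, at 0.66 and -0.63. RPA1, the large subunit of the protein that coats single-stranded DNA, read 1618 after miR-99a against 962 after si-GL2 (0.74), and its second probe set 1241 against 645 (0.93). E2F5, a repressive E2F, read 419 against 241 (0.76) by 1 expressed probe set, and CCNE1, cyclin E1, read 590 against 381 (0.61) by 1. The remaining subunits of RPA were not past 1.5-fold: RPA2 was at 0.04 and RPA3 at -0.39. Other E2F genes outside the 37 were E2F6 at 0.56, E2F4 at 0.41 and 0.36 by its 2 probe sets, E2F3 at 0.22 and E2F7 at -0.10. The lowest of the list by brightest probe set was WEE1, the kinase that puts on the phosphates that CDC25 phosphatases take off, at 1010 against 1490 (-0.55).

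Set step by step, these further genes gave medians of 0.03 for E2F control (14 genes), -0.07 for licensing (8), 0.04 for the helicase (9), -0.07 for the polymerases (21), 0.01 for nucleotides (8) and 0.02 for chromatin and fork control (13). CHEK1, the checkpoint kinase that claspin serves, was at 0.48, 0.57 and 0.32 by its 3 brightest probe sets and at -0.37 by the fourth. The licensing genes held none past 1.5-fold, with ORC3 lowest at -0.36 and ORC2 highest at 0.20.

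Genes of G2 and mitosis are the nearest comparison, as they too follow the number of cycling cells. Of 44 such genes, all expressed, 34 (77.3%) lay below 0 and the median was -0.09, while 16 of the 37 S phase genes (43.2%) lay below 0 and their median was 0.02. Of all expressed genes 56.3% lay below 0. These counts are by brightest probe set. Neither list held a gene 1.5-fold higher, and the G2/M list held none 1.5-fold lower, where 1.21% and 2.9% of all expressed genes were. By brightest probe set MKI67 was highest at 0.40 and FOXM1, a transcription factor for mitotic genes, lowest at -0.34. A dimmer expressed probe set of CDK1 was at 0.94, beside 0.06 by its brightest. Dimmer expressed probe sets of KIF23 and NUSAP1 were both at -0.42. With 1 array per group the gap between the medians cannot be tested.

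**Figure D4:**
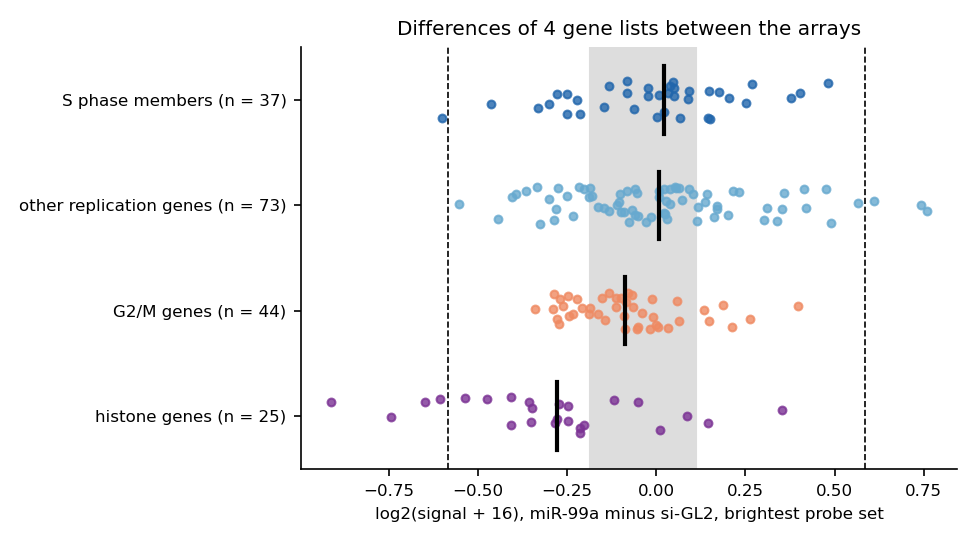
Difference between the arrays, log2(signal + 16), miR-99a minus si-GL2, of the brightest probe set of each expressed gene in 4 lists; points are genes, spread vertically at random, black bars are medians, the grey band spans the quartiles of all expressed genes and dashed lines mark 1.5-fold. The S phase and other replication genes centre at 0.02 and 0.01, the G2/M genes at -0.09 and the histone genes, taken by symbol, at -0.28.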

How the data were processed

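Total RNA of 2 C4-2 cultures was hybridised to 1 Affymetrix array each, after Trizol extraction and biotin labelling per the labels' protocols. The table the authors deposited holds linear signal intensities, a value for each probe set in each culture. How probes were summarised and arrays scaled is not given in the sources used here; the medians, 47.8 after miR-99a and 47.4 after si-GL2, differed by 0.01 on the log2 scale, and values were used as deposited. The number of arrays limits the precision.

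Genes came from the platform annotation: 41091 probe sets had 1 gene, 1801 several, 11721 none and 62 were controls. The identifiers of all 71 member probe sets matched the reference gene table. Signals were transformed to log2(signal + 16), and 1.5-fold (0.58) and 0.32 are rules of size on that scale, not tests. All members are named; of other lists, genes past 1.5-fold or the highest and lowest. Members and lists were chosen with earlier results of these data known. Histone genes were taken by symbol, H1-1 to H1-5 and the H2AC, H2BC, H3C and H4C series, a rule settled after their values were seen. The code of the fold rule was run on simulated data with planted 2-fold changes in brighter probe sets. The simulated spread was smaller than the SD of 0.27 of the real differences. The simulation therefore cannot give the rule's error rate on these arrays. Alternatives were pseudocounts of 1 and 64, quantile normalization, centring, no limit, a limit at the 75th percentile of level, no marked probe sets (_x_, _s_, _a_), a 2-fold rule and averaging the probe sets of a gene. The averages took in probe sets below the limit. Markers and list genes without a single-gene probe set were not analysed here. Python 3.11.15, numpy 2.4.6 and pandas 2.3.3 were used.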

Additional observations from a re-analysis of the deposited data

How the results depend on the processing

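With 1 array per group, no replicate could be left out, and no paired analysis was possible because each group has 1 sample. Medians were recomputed under 8 alternatives. That of the S phase genes ran from -0.010 to 0.05, and was below 0 only without marked probe sets, over 26 genes. That setting also turned the licensing median to -0.023, the helicase median to -0.045 and the nucleotide median to 0.047. Averaging probe sets turned the E2F control median to 0.036 and the nucleotide median to 0.00066, and the 75th percentile limit left 1 E2F control gene, at 0.0015. Chromatin and fork genes ran from -0.21 to -0.06, polymerase genes from 0.02 to 0.04, G2/M genes from -0.09 to -0.06 and histone genes from -0.38 to -0.24. Without marked probe sets 10 of the 37 members had no value, MCM2 and MCM7 among them. Of the 27 with a value in every setting 22 kept their sign, 13 above 0 and 9 below; of the other 10, 9 kept it in the settings that gave one. CDC6, CLSPN, E2F2, GINS2, MCM10 and RRM1 did not keep it. MCM2 to MCM7 stayed above 0 wherever they had a value, MCM6 down to 0.0012 with its probe sets averaged. These signs are a weak check, as few settings could turn one. A pseudocount cannot change a sign, and changing the limit left every gene's brightest probe set the same. Only quantile normalization, centring, dropping marked probe sets and averaging could turn a sign. Dropping or averaging could do so only in genes with more than 1 probe set. The 1 member probe set at least 1.5-fold lower became 0 with a pseudocount of 64, after quantile normalization, with the 75th percentile limit and at 2-fold, and with no limit 1 member probe set was 1.5-fold higher, the dim one of E2F2. Of the other replication genes, 1 was 1.5-fold lower without marked probe sets, against 0, and 0 were 2-fold higher, against 3 at 1.5-fold. The 4 histone genes 1.5-fold lower became 2 with a pseudocount of 64 or without marked probe sets, 7 with no limit, where 1 was higher, and 0 at 2-fold.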

Other observations

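Histone genes of the replication-dependent series lay on the other side of the control from the MCM ring. Their mRNAs are typically made in S phase and end in the stem-loop that SLBP binds rather than in a poly(A) tail. The list was taken by symbol, so this need not hold for every gene or transcript in it. Of 41 listed genes with a probe set 25 were expressed and the median was -0.28. Below 0 lay 21 of the 25, beside 56.3% of all expressed genes. At least 1.5-fold lower were 4 of the 25 (16%, beside 2.9% of all expressed genes). H2BC21 read 548 after miR-99a against 1045 after si-GL2 (-0.91) and H2AC6 read 322 against 550 (-0.74), each by a probe set marked _s_. H4C8 was at -0.61 and -0.62 by its 2 probe sets. H2BC17 was dim, at 42.8 against 76.3 (-0.65). H2BC12 read 3008 against 3572 (-0.25) and the linker histone H1-2 read 1750 against 2326 (-0.41), while H4C4, at 61.4 against 44.6 (0.35), was highest. Histone genes are close copies of one another, so their probe sets are not separate readings. Over the 18 expressed probe sets not marked as open to cross-hybridisation the median was -0.25. Of these 14 lay below 0, beside 54.0% of all expressed probe sets. Whether poly(A) priming was used in labelling is not given in the sources used here, and its part in these values was not tested.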
